A study of Mus musculus with 6 samples.

Results

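Complement and blood clotting are a pair of plasma enzyme cascades whose proteins are made mostly by liver cells. The genes described here are 36 components, inhibitors and regulators of these cascades, 16 of complement and 20 of coagulation, and they were picked by gene symbol. Of the 36, 34 had at least 1 probe set that the platform annotation gives to a single gene, with 46 such probe sets among 34945 of 18193 genes. The probe set of C4b is shared with a related gene, so it was not used, and C3 is not analysed here. All 34 genes, with 45 of their 46 probe sets, were bright enough to be tested.

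Livers came from male BALB/c mice aged 10 weeks, with 3 arrays from mice kept singly for 30 days (isolated) and 3 from control mice. All mice entered at 4 weeks of age and 14 to 18 g, lived 5 to a cage and were given 10 days to settle. Isolated mice then lived 1 per cage with less bedding than controls, all cages stood in a foam box that limited social contact, and all mice had free water and the same diet. Control mice are recorded at 5 per cage, but whether this held after the 10 days is not stated. Whether the arrays stand for separate mice is not stated, so the p-values measure the spread between these samples, which may be partly technical. RNA from whole liver holds all its cell types, and fewer cells of a type and less RNA per cell cannot be told apart in it.

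In complement, mannose-binding lectins with their serine proteases, or the classical and alternative routes, build convertases that cleave the central component. The cleavage products mark targets and start the terminal pathway, whose proteins insert a pore into membranes. In coagulation, the contact and tissue factor routes lead to thrombin, which turns fibrinogen into fibrin, and plasmin later dissolves it. Serpins and the protein C system hold coagulation in check, while factor I and the C1 inhibitor act on complement. Many of these genes are transcribed in hepatocytes under HNF1, HNF4 and C/EBP transcription factors, and some of them, fibrinogen among them, are acute phase genes induced through interleukin-6 and STAT3.

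The values are deposited MAS5 signals, a linear brightness per probe set, and log2 changes are isolated minus control on the log2(signal + 2) scale. The median signal of an array ran from 18.4 to 22.1 and its trimmed mean from 92.5 to 111. Over tested probe sets, arrays correlated at 0.9692 to 0.9739 within groups and at 0.9545 to 0.9682 across groups. Of the hepatocyte markers, albumin (Alb) was bright on all arrays, at 9947 to 10928 on isolated and 10200.1 to 10948 on control arrays, while Ass1 and Hal stayed under 1000 on all of them. The markers did not all stay as level as Alb (-0.03). Of 9 tested, 5 had log2 changes above 0 and 4 below, from -0.09 (Apoa1) to 0.60 (Hal). Isolated replicate 2 stood apart for the complement and coagulation genes: 28 of the 34 had their lowest signal of the 6 arrays on it. Among all 1039 tested genes with a mean signal of at least 1000, 49.4% had their lowest signal there. Class medians and the changes of the genes described one by one are therefore also given without that array.

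No complement or coagulation gene differed between isolated and control livers at an adjusted p under 0.05 (limma, Benjamini-Hochberg over 22519 probe sets). Of the 34 genes, 0 were higher and 0 lower, where 1.75% of all 10986 tested genes were called, 0.901% higher and 0.847% lower, and 1.63% of all probe sets. By the brightest probe set of each gene, 2 genes had an unadjusted limma p under 0.05, where 12.3% of all tested genes passed that mark. They were the pore protein gene C6 and the fibrinogen beta chain gene Fgb, both lower in isolated livers. On the same probe sets, all log2 changes lay between -0.47 (C6) and 0.14 (Klkb1). In size 33 of the 34 were smaller than 0.25, as were 63% of all tested genes and 86.6% of the 1039 bright ones.

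These small differences came with narrow intervals. For the brightest probe sets, the 95% interval of the change lay within 1.5-fold in either direction for 32 of 34 genes. The exceptions were C6 and Cfp, and all 34 lay within 2-fold. The interval of the second probe set of Cfp, -1.36 to -0.04, reached beyond 2-fold. The median SE of a change was 0.13, so shifts of about the size seen here could not be told from none for most of them. These intervals are per gene and are not adjusted for the number of genes.

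**Figure D1:**
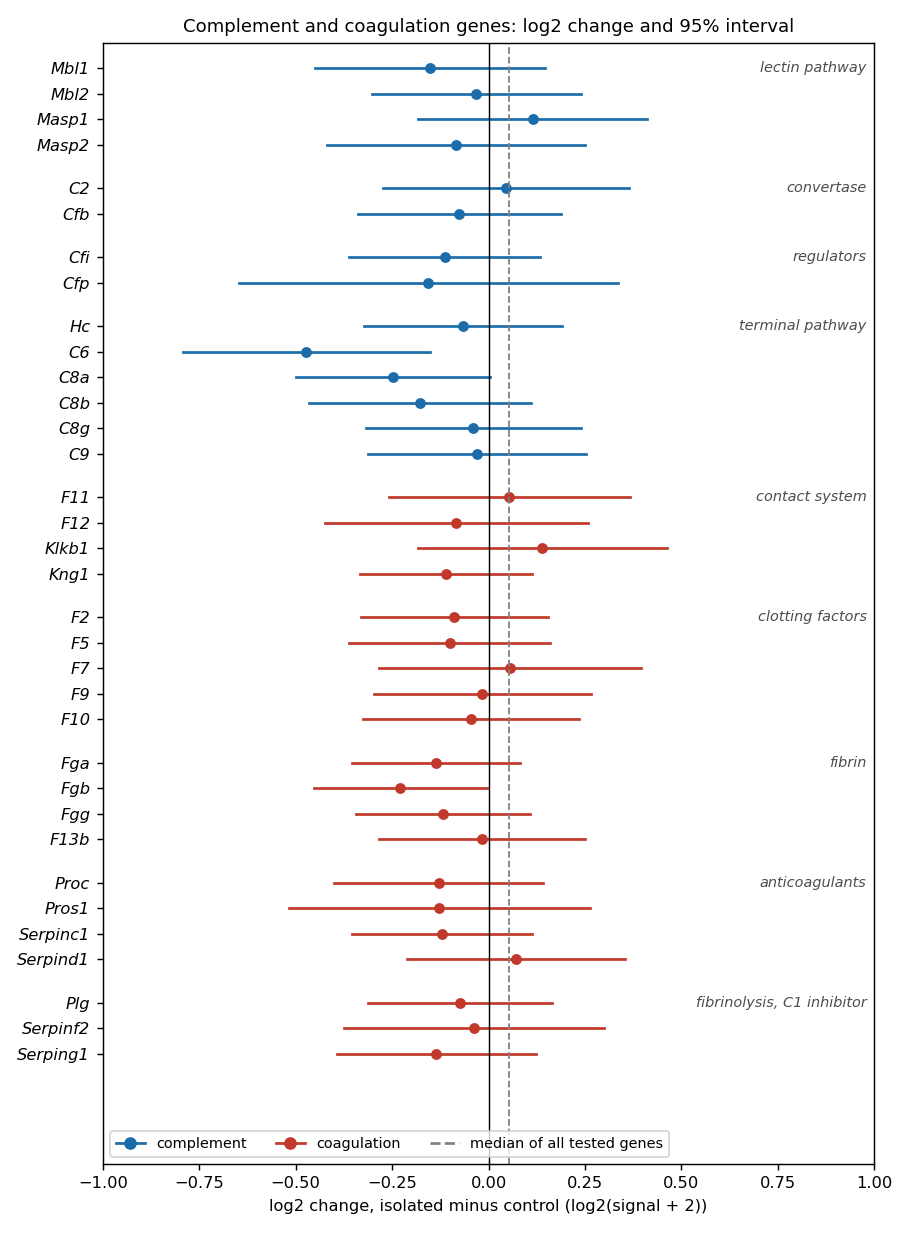
Log2 change of each gene (x axis, isolated minus control, on the log2(signal + 2) scale) with its 95% limma interval, by role down the page, with complement in blue and coagulation in red. Points run from -0.47 for C6 to 0.14 for Klkb1, and the dashed line is the median of all tested genes at 0.05.

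The class medians of complement and coagulation were close. The median log2 change was -0.08 over 14 complement genes and -0.09 over 20 coagulation genes, against 0.05 over all tested genes and 0.02 over the bright ones. Below 0 were 12 of 14 complement and 16 of 20 coagulation genes, and 41.6% of all tested genes. Without isolated replicate 2 the medians were 0.01 for complement and 0.001 for coagulation, with 7 of 14 and 10 of 20 genes below 0. The median of all genes also rose, to 0.12. Relative to the median of all genes, complement stood at -0.13 over all arrays and at -0.11 without that array. Coagulation stood at -0.14 and -0.12 in the same fits. With isolated replicates 2 and 3 both left out, which leaves 1 isolated array, the class medians were -0.05 and -0.04. With any 1 array left out, the complement median ran from -0.15 (without control replicate 2) to 0.01 and the coagulation median from -0.14 (without isolated replicate 3) to 0.001, and without control replicate 3 they were -0.02 and -0.06. Centring each array on its median gave -0.03 for both classes, with 9 of 14 and 12 of 20 genes below 0, where all genes had 0.11. Array weights gave -0.04 for both (-0.035 and -0.0388), where all genes had 0.08. The difference between the class medians, complement minus coagulation, was 0.006 over all arrays and stayed between -0.03 and 0.04 with any 1 array left out. The classes share their arrays and the genes are not independent, so this is a description with no test.

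**Figure D2:**
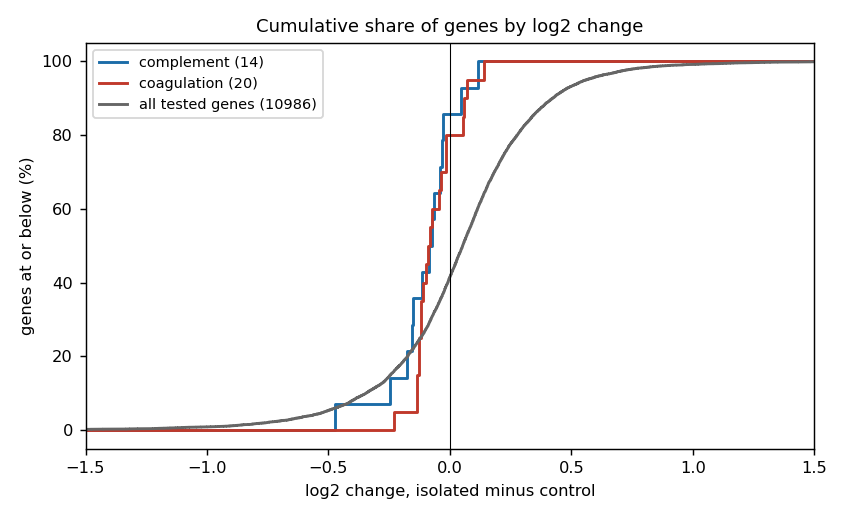
Cumulative share of genes (y axis, %) by log2 change, isolated minus control (x axis), for 14 complement genes, 20 coagulation genes and all 10986 tested genes. Both member curves climb steeply just left of 0 and nearly coincide, except for C6 at -0.47, while the curve of all genes is broader.

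Array by array, the median deviation of the complement genes from their own mean over 6 arrays was -0.01, -0.23 and 0.08 on isolated replicates 1, 2 and 3, and 0.02, -0.04 and 0.17 on control replicates 1, 2 and 3 (log2). For the coagulation genes it was -0.01, -0.21 and 0.07 on the isolated arrays and 0.04, -0.03 and 0.09 on the control arrays. The bright genes as a whole gave 0.04, -0.14 and 0.12 on isolated and -0.06, -0.09 and 0.12 on control arrays. Thus both classes and the bright genes had their lowest array in isolated replicate 2, and the groups overlapped in each.

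**Figure D3:**
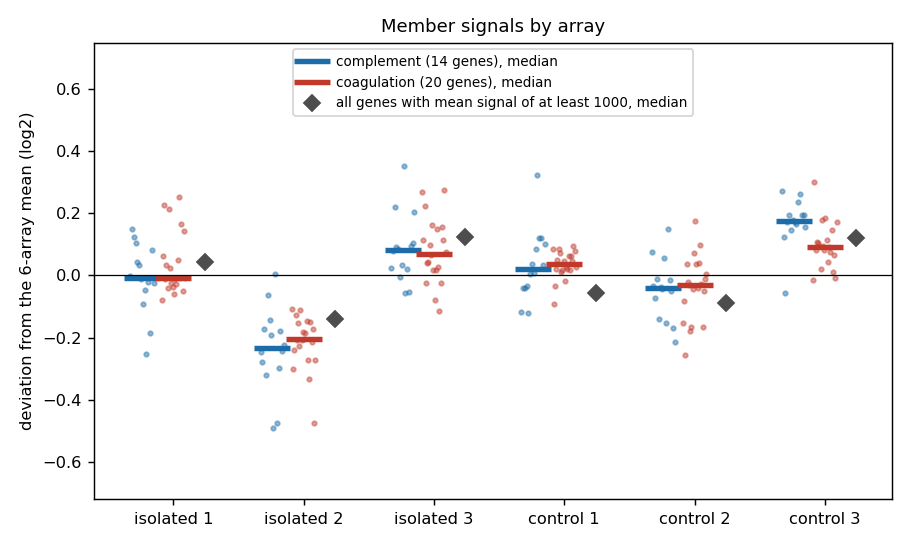
Deviation of each gene's log2 signal from its mean over the 6 arrays (y axis), by array (x axis). Dots are genes, bars are class medians and diamonds the median of genes with a mean signal of at least 1000; isolated replicate 2 is lowest for both classes, at -0.23 and -0.21.

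The signals of 6 genes, by their brightest probe sets, did not overlap between the groups. All 6 were lower on every isolated array: C6, C8a, Kng1, Fga, Fgb and Fgg. Among all tested genes 16% did not overlap, 10.8% higher and 5.17% lower in isolated livers. By class these were 2 of 14 complement and 4 of 20 coagulation genes. The limma test passed none of them. Without isolated replicate 2 their changes were -0.35 for C6, -0.16 for C8a, -0.07 for Kng1, -0.08 for Fga, -0.18 for Fgb and -0.06 for Fgg, all still below 0.

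**Figure D4:**
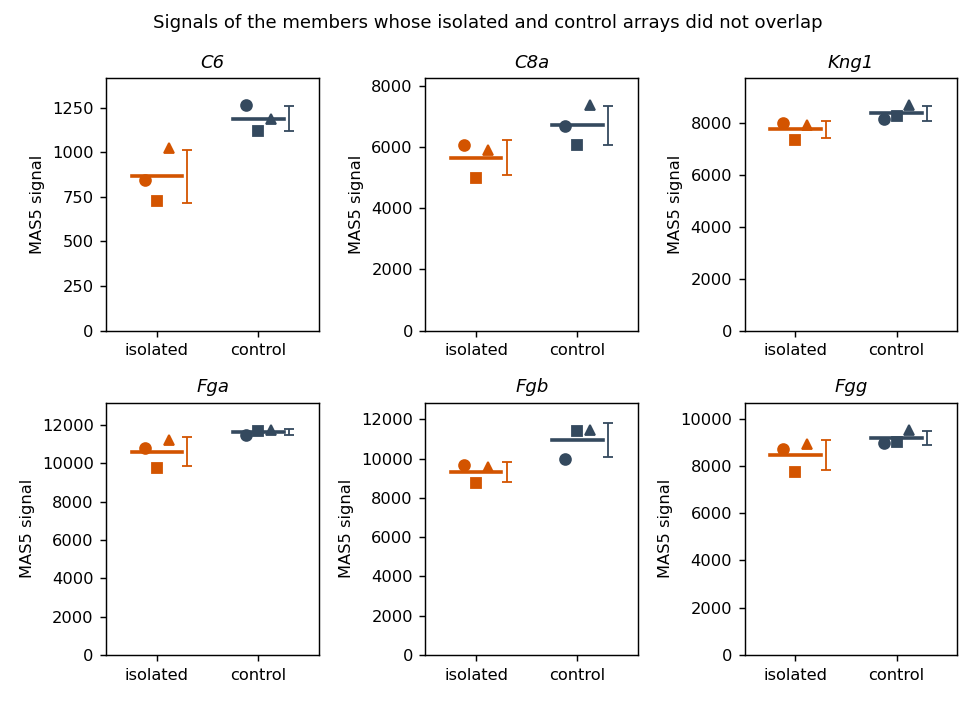
MAS5 signal (y axis, linear, from 0) in isolated (left) and control (right) livers for the 6 genes whose groups did not overlap; points are arrays, with a circle, square and triangle for replicates 1, 2 and 3, thick bars are means and error bars SD (n = 3). As a ratio the gap is widest for C6, 865 against 1190.1, and each fibrinogen chain has its lowest point on isolated replicate 2.

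By the brightest probe sets, the terminal pathway held the complement genes that differed most. C6 encodes the protein that joins the growing membrane pore after cleaved C5. Its signal was 846, 725 and 1024 on isolated arrays, against 1263, 1119 and 1188 on control arrays. The isolated arrays thus lay below every control array, at 865 ± 151 against 1190.1 ± 72.3 (SD, n = 3 each). The log2 change was -0.47 ± 0.15 (SE; 95% interval -0.79 to -0.15), 1.39-fold lower, with an unadjusted limma p of 0.00596 and an adjusted p of 0.158. Whether C6 passed depended on how the arrays were scaled. With each array divided by its trimmed mean, the change was -0.51 with a limma adjusted p of 0.0362, and with quantile normalization -0.51 with 0.0354. Centring on the bright genes, chosen after seeing the data, gave -0.48 with 0.0437. Over all settings tried the adjusted p of C6 ran from 0.0354 to 0.462, and with 1 array left out the change lay between -0.60 and -0.35 and did not pass. Without isolated replicate 2 it was -0.35, with an adjusted p of 0.38.

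C8a and C8b encode chains of the eighth component, which anchors the pore in the membrane. C8a had signals of 6059.8, 4999 and 5924 on isolated arrays, against 6688, 6088 and 7367 on control arrays. Its groups just missed each other, isolated replicate 1 lying close below control replicate 2, and its change of -0.25 ± 0.12 (SE) had a limma adjusted p of 0.45. C8b had 1597, 1604 and 1939.8 in isolated livers and 1973, 1753 and 2079 in control livers, which overlapped (-0.18 ± 0.14, SE, and -0.13 without isolated replicate 2). The third chain gene C8g, the pore-forming C9 and Hc, which encodes C5, had log2 changes of -0.04, -0.03 and -0.07, and the sign of each turned when 1 array was left out. All 6 terminal pathway genes were below 0, with a median of -0.12, but the list held C6 alone at an unadjusted p under 0.05.

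In the lectin pathway, 0 of 4 genes were called and the changes ran from -0.15 to 0.11. Mbl1, a mannose-binding lectin that recognises sugars on microbes, had signals of 1726, 1456 and 1756 in isolated livers, against 1592, 1821 and 2088 in control livers. The groups overlapped, and the change was -0.15 ± 0.14 (SE). The other lectin gene, Mbl2, had a change of -0.03. Masp1, whose serine protease activates the lectin complexes, gave 1467, 1195 and 1572 on isolated arrays and 1310.1, 1281 and 1294 on control arrays. Here the isolated arrays spanned the narrow control range on both sides (0.11 ± 0.14, SE), and its 4 other probe sets had changes of -0.05, 0.11, 0.21 and 0.30, the last of them too dim to be tested. Masp2, the protease that cleaves the fourth and second components, had 749, 557 and 742 in isolated livers, against 680.4, 692 and 785 in control livers. Its change of -0.08 ± 0.16 (SE) became 0.06 without isolated replicate 2, where Mbl1 had -0.07 and Masp1 0.23.

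Of the convertase components, C2 and factor B (Cfb) could be measured. C2, the serine protease of the classical and lectin convertase, read 758, 703 and 780.5 in isolated livers, against 675, 666 and 842 in control livers. The change of 0.04 ± 0.15 (SE) came from a probe set of a type that can also bind related sequences, and the other probe sets of C2 gave 0.01 and -0.08. Cfb, its counterpart in the alternative pathway, read 2687, 2379 and 2616 in isolated livers and 2633, 2557 and 2905 in control livers. Its groups overlapped too, with a change of -0.08 ± 0.13 (SE). Without isolated replicate 2 the changes were 0.09 for C2 and -0.02 for Cfb.

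The regulators were factor I (Cfi), a protease that inactivates convertase fragments, and properdin (Cfp), which stabilises the alternative convertase. Cfi had signals of 5238, 4631 and 5406 in isolated livers, against 5419.8, 5132 and 5978 in control livers (-0.11 ± 0.12, SE). Cfp had 59.9, 44.9 and 82.2 in isolated livers and 64.3, 66.7 and 72.3 in control livers (-0.16 ± 0.24, SE). Cfp was thus the dimmest of the 34 genes and had the widest interval, -0.65 to 0.33. Without isolated replicate 2 the changes were 0.05 for Cfp and -0.05 for Cfi. The second probe set of Cfp read 34.9, 35.2 and 15.6 on isolated arrays, against 36.7, 51.3 and 48.7 on control arrays. Those groups did not overlap, and the change of -0.70 ± 0.32 (SE) had a limma adjusted p of 0.398. Properdin is made mainly by myeloid cells. The summed signal of 10 Kupffer cell and macrophage marker genes, of which 9 were tested and 0 called, was 2095 to 2888 on isolated and 2531 to 3019 on control arrays, with Marco near background. Its part in the Cfp values was not tested.

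Of the coagulation genes, the fibrinogen genes Fgb and Fga had the lowest changes by the brightest probe sets. Fga, Fgb and Fgg encode its alpha, beta and gamma chains and are neighbours on mouse chromosome 3. Fga had signals of 10807, 9769 and 11228 in isolated livers, against 11462.5, 11674 and 11748 in control livers. For Fgb they were 9675, 8756 and 9562 in isolated livers and 9961, 11407 and 11464 in control livers. Fgg gave 8736, 7750.4 and 8923 in isolated livers and 8984, 9031 and 9530.4 in control livers. In each chain every isolated array lay below every control array, yet the differences were small, at 1.10-fold, 1.17-fold and 1.09-fold lower for Fga, Fgb and Fgg. The changes were -0.14 ± 0.10, -0.23 ± 0.11 and -0.12 ± 0.11 (SE), with limma adjusted p of 0.717, 0.428 and 0.784. Fgb alone had an unadjusted p under 0.05, at 0.0469. Signals this bright are near the top of the arrays' range, where brightness can rise less than RNA does, and this was not tested. F13b, the carrier subunit of the factor that cross-links fibrin, had a change of -0.02.

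The promoters of these chains and of C6 are shown because these are the genes whose groups lay apart with the smallest p or as chains of 1 protein. Each line gives the 250 bases before the transcription start (RefSeq, GRCm38.p6), 5′ to 3′ on the gene's strand, with matches to the HNF1 half-site GTTAAT and to the C/EBP motif TTGCNNAA, on either strand, in capitals. The windows are chr3:83025903-83026152 (plus strand) for Fga, chr3:83049864-83050113 (minus) for Fgb, chr3:83007474-83007723 (plus) for Fgg and chr15:4726960-4727209 (plus) for C6. The C6 start in the promoter table lies inside the annotated gene, so part of its window lies within the gene, while the windows of the fibrinogen chains end where their genes begin.
Fga: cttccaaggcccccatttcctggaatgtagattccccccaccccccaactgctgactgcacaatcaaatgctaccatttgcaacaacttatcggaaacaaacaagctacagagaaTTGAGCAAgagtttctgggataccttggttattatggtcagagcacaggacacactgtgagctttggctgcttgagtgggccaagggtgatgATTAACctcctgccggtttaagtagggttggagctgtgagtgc
Fgb: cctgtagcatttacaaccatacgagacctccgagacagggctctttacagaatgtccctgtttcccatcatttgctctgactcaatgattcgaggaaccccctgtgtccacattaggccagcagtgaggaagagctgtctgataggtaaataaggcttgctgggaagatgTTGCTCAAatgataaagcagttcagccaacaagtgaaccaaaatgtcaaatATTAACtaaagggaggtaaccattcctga
Fgg: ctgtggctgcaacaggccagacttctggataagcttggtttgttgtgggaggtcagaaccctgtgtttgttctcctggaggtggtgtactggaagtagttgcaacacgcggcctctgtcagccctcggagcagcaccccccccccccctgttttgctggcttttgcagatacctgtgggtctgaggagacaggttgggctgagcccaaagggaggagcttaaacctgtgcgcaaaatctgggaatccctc
C6: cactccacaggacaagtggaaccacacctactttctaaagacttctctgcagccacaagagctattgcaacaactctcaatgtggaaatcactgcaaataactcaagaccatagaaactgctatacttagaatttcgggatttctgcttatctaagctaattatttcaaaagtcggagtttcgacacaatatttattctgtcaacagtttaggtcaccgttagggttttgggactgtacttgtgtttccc
Fga and Fgb each hold 1 match to both motifs, and the 250 bases of Fgg and C6 hold neither. The HNF1 match of Fga starts 43 bases before the start and that of Fgb 29 bases before it, and the C/EBP matches start 135 and 80 bases before it. A match is a description of letters, not of a bound site, and the absence of one says only that these letters are not in this window.

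Promoter windows of 300 bases, from 250 before to 50 after the start, were at hand for 26 of the 34 genes, 27 windows in all. The HNF1 half-site was in 8 of 27 windows (29.6%), against 7.1% of all 32851 windows. Those 8 were C8a, C8b, Cfp, Hc, F2, F13b, Fga and Fgb. The C/EBP motif was in 7 (25.9%, against 10.8%), of which 6 were coagulation genes (F9, F11, Fga, Fgb, Klkb1 and Serpinc1) and 1 a complement gene (C9). The STAT motif TTCNNNGAA was in 6 (22.2%, against 8.3%), the HNF4 half-site CAAAGT in 5 (18.5%, against 14.35%) and the glucocorticoid receptor half-site AGAACA in 10 (37%, against 18.97%). All were searched on both strands, and windows were not matched for base composition.

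The contact system starts clotting on surfaces and releases bradykinin. Kng1 encodes kininogen, the source of bradykinin, and read 7987, 7364 and 7910.3 in isolated livers, against 8173, 8257 and 8680.1 in control livers. The groups did not overlap, but the change was -0.11 ± 0.11 (SE), and that of its second probe set, whose groups overlapped, was -0.17. Klkb1, which encodes plasma prekallikrein, had 1749, 1264 and 1745 in isolated livers, against 1459.9, 1249.8 and 1582 in control livers. With 0.14 ± 0.15 (SE) it had the highest change of all 34 genes by the brightest probe sets, and it overlapped between the groups. F12, the factor that activates prekallikrein, had 861, 669 and 893 in isolated livers and 773, 779 and 1016 in control livers (-0.08 ± 0.16, SE). The change of F11, which factor XIIa activates, was 0.05. Without isolated replicate 2 the changes of Klkb1 and F12 were 0.29 and 0.05.

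Among the clotting factors that lead to thrombin, 0 of 5 were called and the changes ran from -0.10 to 0.06. F5, the cofactor of factor Xa, read 2599, 2399.8 and 2754 in isolated livers, against 2838, 2613 and 2855 in control livers (-0.10 ± 0.13, SE). F2, which encodes prothrombin, read 6124, 5175 and 6146 in isolated livers, against 6192, 5885 and 6434 in control livers (-0.09 ± 0.12, SE). F7, which starts the tissue factor route, read 686, 506 and 634 in isolated livers, against 623, 523 and 601 in control livers (0.06 ± 0.16, SE). In each of the 3 the groups overlapped and isolated replicate 2 had the lowest signal. Without it the changes were -0.05 for F5, -0.007 for F2 and 0.18 for F7. F9 and F10, which encode the factors IX and X that the tissue factor route activates, had changes of -0.02 and -0.05. The second probe set of F5 gave -0.09, and those of F10 gave -0.0006 and -0.12.

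Anticoagulant genes likewise gave 0 calls of 4. Serpinc1 encodes antithrombin, the main inhibitor of thrombin, and had 6294, 5693 and 6223 in isolated livers, against 6608, 6201 and 6999.8 in control livers (-0.12 ± 0.11, SE). Proc, which encodes protein C, had 2759, 2207 and 2719 in isolated livers and 2786, 2738 and 2841 in control livers (-0.13 ± 0.13, SE). Pros1 encodes protein S, the cofactor of activated protein C, and had 241, 160.2 and 187 in isolated livers, against 205, 216 and 213 in control livers (-0.13 ± 0.19, SE). The isolated arrays of Pros1 spread on both sides of the control arrays, and without isolated replicate 2 its change was 0.007, that of Serpinc1 -0.08 and that of Proc -0.03. Serpind1, which encodes heparin cofactor II, an inhibitor of thrombin, had a change of 0.07.

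For fibrinolysis, Plg encodes plasminogen and Serpinf2 its inhibitor antiplasmin, while Serping1 encodes the C1 inhibitor, which acts on complement and contact proteases alike. Plg had signals of 6989, 6416 and 7837 in isolated livers, against 7722, 6985 and 7584 in control livers (-0.07 ± 0.11, SE). Serpinf2 read 2558, 1665 and 2801 on isolated arrays, against 2444, 2297 and 2300.3 on control arrays. It was the member most moved by 1 array, with a change of -0.04 ± 0.16 (SE) that was 0.19 without isolated replicate 2. Serping1 had 4958, 4129 and 5256 in isolated livers and 5078, 4997 and 5617 in control livers (-0.14 ± 0.12, SE). Without isolated replicate 2 the changes were -0.03 for Serping1 and -0.005 for Plg. Counting Serping1 with complement left both class medians at -0.08.

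Other genes of the cascades gave no calls by their brightest probe sets. Of 35 further complement genes, 27 had a single-symbol probe set, 23 were tested and 0 were called (limma), where 1.75% of all tested genes were called. At an unadjusted limma p under 0.05 there were 2 (8.7%), where 12.3% of all tested genes passed that mark. These 2 were Fcnb, a ficolin, at 9.34, 14.2 and 12.4 in isolated against 20.5, 25.2 and 49.96 in control livers, and Cd55, a membrane regulator that speeds convertase decay, at 75.1, 72.9 and 99.5 in isolated against 51.1, 55.7 and 69.5 in control livers. Their limma adjusted p were 0.206 and 0.419, and Fcnb was dim enough that its fold is uncertain. The 2 other probe sets of Cd55 had log2 changes of 0.33 and -0.09, neither at an unadjusted limma p under 0.05. Cpn1, a chain of the carboxypeptidase that inactivates anaphylatoxins, had a second probe set that was lower in isolated livers, named after its values were seen. It read 185, 144 and 148 in isolated livers, against 243, 310.04 and 317 in control livers (-0.86 ± 0.19, SE, limma adjusted p 0.0163), while the probe set with the highest mean gave -0.10. Of 37 further coagulation genes, 26 were tested and 0 called, with 3 (11.5%) at an unadjusted limma p under 0.05, against the same 12.3%. Fgl1, a fibrinogen-like protein made by hepatocytes, averaged 996 ± 230.1 in isolated and 1437 ± 193 in control livers (SD, n = 3 each, limma adjusted p 0.132). S100a10, a partner of annexin A2 in plasminogen binding, averaged 539 ± 90.8 in isolated and 332 ± 130.1 in control livers (SD, n = 3 each, limma adjusted p 0.091). Fgl1 passed without isolated replicate 1 (0.0422). The mean of the 3 probe sets of S100a10 gave 0.38 (0.59). S100a10 passed without control replicate 2 (0.0032), with the upper 30% of probe sets tested (0.0318) and with isolated replicates 2 and 3 left out (0.0346), a fit in which the lone isolated array is assumed to vary like the control arrays.

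Regulators of liver transcription did include calls. Of 25 genes in that list 23 were tested, and 2 fell, Cebpb and Ppara, where 0.847% of all tested genes were called lower. Cebpb encodes C/EBPbeta, a factor that drives acute phase genes. Its signal was 421, 384 and 679 in isolated livers, against 1067, 1037 and 1211 in control livers. Every isolated array lay below every control array, 2.3-fold lower on average, with a log2 change of -1.20 ± 0.19 (SE) and a limma adjusted p of 0.000839. Its second probe set also fell, by 0.96 on the log2 scale (limma adjusted p 0.0413). Ppara, the nuclear receptor that turns on fat oxidation, read 839, 749 and 1167 in isolated livers, against 1411, 1396 and 1768 in control livers. It fell by 0.75 on the log2 scale (limma adjusted p 0.022), and a second of its 3 probe sets passed as well. Without an intensity trend in the variance neither passed (adjusted p 0.124 for Cebpb and 0.264 for Ppara), and Ppara did not pass without a filter (0.0931), without isolated replicate 1 (0.0593), without isolated replicate 2 (0.0659) or without control replicate 3 (0.126).

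Other factors of the list are given for the contrast, chosen after their values were seen. Cebpd read 62, 40.2 and 77.4 in isolated livers, against 91, 99.1 and 119.8 in control livers (limma adjusted p 0.105). Stat3 gave 552 ± 132 in isolated and 689.8 ± 105 in control livers (SD, n = 3 each, limma adjusted p 0.531), and Osmr, a receptor for oncostatin M, 25.8 ± 8.52 in isolated and 59.3 ± 13.8 in control livers (SD, n = 3 each, limma adjusted p 0.0522). Cebpa and Hnf4a, which sustain hepatocyte genes, had log2 changes of 0.07 and 0.04 with overlapping groups. Foxa3 went the other way and was higher on every isolated array, at 560, 395 and 597 against 340, 343 and 380 in control livers. Its log2 change was 0.52 (limma adjusted p 0.183). Of the 23 tested genes of the list, 10 were above 0 and 13 below. At an unadjusted limma p under 0.05 were 6 (26.1%), where 12.3% of all tested genes passed that mark. The groups of 7 genes did not overlap, 6 lower and 1 higher in isolated livers. Among all tested genes 5.17% lay apart and lower and 10.8% apart and higher.

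**Figure D5:**
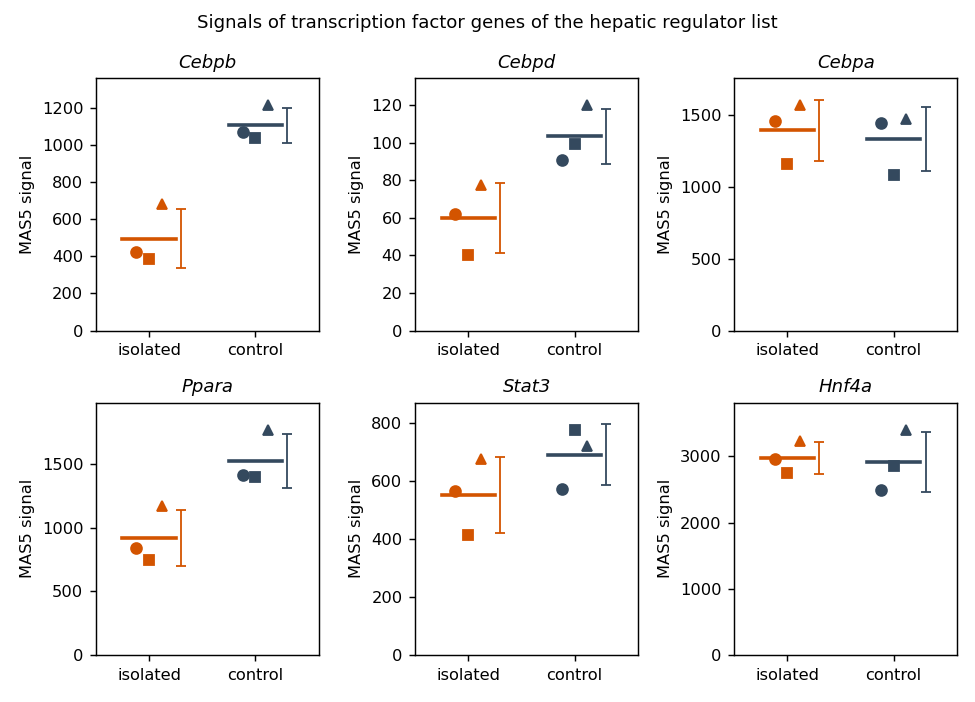
MAS5 signal (y axis, linear, from 0) in isolated (left) and control (right) livers for 6 transcription factor genes; points are arrays, with a circle, square and triangle for replicates 1, 2 and 3, thick bars are means and error bars SD (n = 3). Cebpb and Ppara lie lower on all isolated arrays (495 against 1105, and 918 against 1525), while Cebpa and Hnf4a overlap.

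Acute phase genes outside the cascades, of which 19 of 20 were tested, held 1 call, where 1.75% of all tested genes were called. This was Orm2, an orosomucoid, which rose 2.46-fold. It read 153, 141 and 83.4 in isolated livers, against 43.5, 47.3 and 54.2 in control livers. Its limma adjusted p was 0.00398, or 0.111 without the intensity trend. Steap4, a metalloreductase, averaged 843 ± 232 in isolated and 1408 ± 483 in control livers (SD, n = 3 each, limma adjusted p 0.144), and passed without control replicate 1 (0.00499) and with the upper 30% of probe sets tested (0.0465). The median log2 change of that list was -0.17. At an unadjusted limma p under 0.05 were 4 of its 19 tested genes (21.1%), against 12.3% of all tested genes. Saa1, a serum amyloid named after its values were seen, stood at 2628 on control replicate 2, against 234 and 1034 on the other control arrays and 296 to 439 on isolated arrays. On that same control array the median deviations of the complement and coagulation genes were -0.04 and -0.03, against -0.09 for the bright genes. No member had its highest signal there, but only 17 of the 1039 bright genes did. That array was thus rarely the highest for bright genes in general, and the member count says little about Saa1. Whether the members followed Saa1 was not tested.

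Markers of liver cells and of other cell types gave 0 calls in every list by the brightest probe set of each gene (limma). Among all tested genes 1.75% were called. At an unadjusted limma p under 0.05 were 2 of 9 hepatocyte, 2 of 9 stellate, 1 of 3 neutrophil and 1 of 4 fat cell genes. Among all tested genes 12.3% passed that mark. The 2 hepatocyte genes were Hal and Tat, both higher in isolated livers, with log2 changes of 0.60 and 0.50. Summed over each list, hepatocyte markers were 120300 to 130500 on isolated and 123700 to 131700 on control arrays. Endothelial markers were 1826 to 2264 on isolated and 2055 to 2428 on control arrays, with 10 of 10 genes tested. Stellate cell markers were 3965 to 4812 on isolated and 3742 to 4575 on control arrays (9 of 10 tested). Neutrophil markers were 123 to 171 on isolated and 143 to 239 on control arrays (3 of 9 tested), with Cxcr2 near background, and platelet markers were 202 to 226 on isolated and 175 to 272 on control arrays (3 of 8 tested), with Gp9 near background. Fat cell markers, of which 4 of 8 were tested, were 22660 to 23720 on isolated and 20440 to 22090 on control arrays, most of it from Car3, a carbonic anhydrase that hepatocytes also express. The brightest probe set of Car3 had a log2 change of -0.02, and another bright one had -0.0016. The 2 dimmer probe sets of Car3, which averaged 89.1 and 77.1 in control livers, were named after their values were seen. They rose 9.71-fold and 15.3-fold (limma adjusted p 4.9e-06 and 1.03e-05). Adipoq, defining for fat cells, read 3.78, 59.5 and 54.8 on isolated arrays and 4.38, 8.48 and 15.6 on control arrays. Retn read 2.65, 20 and 42.2 on isolated arrays and 2.39, 2.78 and 3.88 on control arrays. Both were too dim to be tested, and Lep was near background on all. Fabp4 read 203, 300 and 404 on isolated arrays and 117, 202 and 157 on control arrays (limma adjusted p 0.0578). Of the 4 tested genes 1, Fabp4, was above 0 and 3 were below. Adipoq, Retn and Fabp4 were also named after their values were seen. The part of these cells in the complement and coagulation values was not tested.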

How the data were processed

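Liver RNA of 3 isolated and 3 control samples was hybridised to 1-colour Affymetrix arrays. The authors deposited 1 table of MAS5 signal intensity per probe set, per the submitters' processing notes. The MAS5 version is not given in the sources used here, nor is its scaling target. Of 45101 probe sets, 64 controls were left out. GEO's platform annotation gave 1 symbol to 34958 probe sets, several to 932 and none to 9211, and those with several were not named.

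No further scaling was applied. Intensities were taken as log2(signal + 2), the upper 50% of probe sets by mean were kept (22519), and groups were compared with limma 3.58.1 in R 4.3.3 (lmFit and eBayes with an intensity trend, Benjamini-Hochberg, threshold 0.05). A gene is represented by its brightest probe set. An exact permutation test of 3 against 3 cannot go below a two-sided p of 0.1, so it was not used. Genes were named by rule. Among members these were any with a called probe set, up to 3 per role group by smallest p, and any whose probe sets differ in sign with 1 at an unadjusted p under 0.05. In the other lists they were the called genes and up to 2 with the smallest p. Other genes named with values on single arrays are marked as chosen after their values were seen. The gene group, the lists and the tests were chosen with earlier results of these data known. The fit was tested on simulated data. The number of arrays limits the precision.

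Alternatives were other pseudocounts, filters, scalings, variance models, thresholds and probe set rules, a replicate block, leaving out arrays, and centring on bright genes, which was added after seeing the data. Promoter sequences are from RefSeq (GRCm38.p6). Figures were drawn with matplotlib 3.10.9.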

Additional observations from a re-analysis of the deposited data

How the results depend on the processing

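No coagulation gene passed under any alternative run, and among complement genes 1, C6, was called lower with trimmed mean scaling, quantile normalization and centring on bright genes (added after seeing the data). Over all probe sets, 174 were called higher and 193 lower, or 258 and 183 with median centring; without a filter these were 81 and 101, without an intensity trend 15 and 16, with the upper 30% of probe sets 264 were higher, at an adjusted p under 0.1 303 were higher, and without isolated replicates 2 and 3 88 were higher. Leaving out 1 array gave 97 to 187 higher (97 without isolated replicate 3, 115 without control replicate 2) and 82 to 243 lower (82 without control replicate 3). With the replicate number as a block, 265 probe sets were higher and 248 lower and no complement or coagulation gene passed. Same-numbered samples had correlations of their deviations of 0.008, 0.044 and 0.005, and differently numbered ones from -0.042 to 0.037. The labels do not say whether same-numbered samples are paired, and these correlations cannot settle it with 3 arrays per group. Scaling moved the median of all genes between 0.02 (trimmed mean) and 0.11 (median centring). With 1 array left out, the sign turned for 15 of the 34 complement and coagulation genes, none of them called. Among the genes described one by one it turned for 7 over all alternatives: Serpinf2 was 0.02 with median centring (0.0154) and with array weights (0.0219), and 0.12 without isolated replicates 2 and 3, where Masp2 was 0.0619, F12 0.0197 and Pros1 0.19; C2 was -0.01 with quantile normalization (-0.0129) and -0.0057 as the mean of its probe sets. With 1 array left out, Masp2 ran from -0.16 to 0.0553, C2 from -0.0146 to 0.15, Cfp from -0.37 to 0.051, F12 from -0.16 to 0.0462, F7 from -0.0358 to 0.18, Pros1 from -0.29 to 0.0069 and Serpinf2 from -0.18 to 0.19. The causes were not tested.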
